A study of Sus scrofa with 24 samples.

Results

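TLR4, a Toll-like receptor, and MyD88, the adaptor protein that carries its signal into the cell, stand at the head of innate immune signalling. They were taken by name from the 26 target genes measured by quantitative RT-PCR in the small intestinal mucosa of pigs, and so make up 2 of the 26. TLR4 was described in the jejunal mucosa and MyD88 in the jejunal and ileal mucosa, because the Ct values listed for TLR4 in the ileum are those of the jejunum.

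The samples came from 6 pigs with post-natal growth retardation (PGR) and 6 healthy pigs, all 42 d of age, with jejunal and ileal mucosa from each pig (24 samples in 4 groups). All were Duroc × Landrace × Large Yorkshire crossbreds of shared paternal origin on the same feed, PGR and healthy pigs were matched by litter, and a pig counted as PGR when it weighed far less than the average pig of its age. PGR is therefore a class set by body weight and not a defined lesion or genotype. Samples are named here by the tissue and pig number of their titles, since for 12 of them the tissue field names the other tissue. The mucosa was scraped off whole, and the 26 target genes hold no set of markers for its epithelial or immune cells. The genes of the gut hormones ghrelin (GHRL) and cholecystokinin (CCK), which are made mainly in the proximal gut, were looked at after their values had been seen. Relative to β-actin, the mean jejunal level of GHRL was 96.2 times and that of CCK 10.8 times the ileal level in healthy pigs as titled, and 48.6 and 6.7 times in PGR pigs. The jejunal level was the higher one in every pig with both values (3 to 5 a group), too few for a call. In such bulk scrapings, fewer cells of a type and less RNA per cell cannot be told apart.

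TLR4 is the cell surface receptor for lipopolysaccharide, the outer membrane component of Gram-negative bacteria, which it binds together with its co-receptor MD-2. Ligand binding brings MyD88 to the receptor through a domain that both proteins share, and MyD88 in turn recruits IRAK kinases, which leads to activation of NF-κB and transcription of inflammatory cytokines. MyD88 serves most other Toll-like receptors and the interleukin-1 receptor as well, and TLR4 can also signal through the adaptor TRIF. In the gut, cells that meet bacterial products keep this pathway under tight control.

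Each sample was read as a Ct, the number of PCR cycles needed for the product's fluorescence to cross a threshold, so that a Ct earlier by 1 cycle means about 2 times the template. The level is the value relative to β-actin (2 to the power of −ΔCt), scaled here so that the healthy pigs of that tissue average 1. The β-actin Ct behind each value was recovered from the Ct and the level. TLR4 and MyD88 shared the same jejunal β-actin readings. Among the jejunal levels of these genes 5 had been left blank in the deposited values, and each could be recomputed from its Ct. A Ct carries no counting depth, and precision here rests on the triplicate wells. P-values are from two-sided exact permutation tests over pigs, and a difference with an unadjusted P-value under 0.05 is called here.

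In the jejunal mucosa the level of TLR4 was lower in PGR pigs than in healthy pigs when the deposited values were taken as they stand, and this difference was lost when the blank values were filled in. The levels of the healthy pigs with a value were 0.779, 1.32, 0.850, 0.974 and 1.08, with pig 5 blank. The levels of the PGR pigs were 0.653, 0.846, 0.594, 0.529 and 0.472, with pig 1 blank. In 4 of these 5 PGR pigs TLR4 was below every healthy pig with a value, and the exception, PGR pig 3, overlapped the lower healthy pigs.

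The mean level of TLR4 was 0.619 ± 0.144 (SD, n = 5) in PGR pigs and 1 ± 0.213 (SD, n = 5) in the healthy group, with an exact permutation p of 0.0159 where 5 against 5 pigs allow no smaller p than 0.00794. Adjusted over the 51 gene and tissue comparisons by the Benjamini-Hochberg method, this exact permutation p was 0.0714. On the log2 scale the PGR to healthy ratio of TLR4 was 0.617, with a 95% interval of 0.444 to 0.853. The background is high, since 50 percent of the 26 jejunal genes were lower in PGR pigs at this threshold, 0 were higher and 0 passed the adjustment. TLR4 ranked 10 of 26 from the lowest ratio, and its log2 change of −0.69 was near the median of all jejunal genes, −0.64.

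The blank pigs were the extremes of TLR4. From its Ct, healthy pig 5 had a level of 0.437, the lowest of all 12 pigs, and PGR pig 1 had a level of 1.72, the highest. With both filled in, the TLR4 levels of PGR pigs ran from 0.472 over a median of 0.624 to 1.72, and those of healthy pigs from 0.437 over a median of 0.912 to 1.32. The groups then overlapped over nearly the whole range, with 5 of 6 PGR pigs still below the healthy mean. The PGR mean was 0.886 ± 0.518 (SD, n = 6) of the healthy mean (exact permutation p = 0.675), with a 95% interval of 0.50 to 1.48 for the ratio on the log2 scale. At these filled levels 19.2 percent of jejunal genes were lower in PGR pigs at the unadjusted threshold.

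The listing of TLR4 under the ileal mucosa held the same Ct as the jejunal one in 12 of 12 pigs, and TLR4 was the 1 gene of which this was true. Its levels were equal too in the 10 pigs with a jejunal value. It also still held a level for the 2 blank pigs, and these were the values recomputed here. No ileal measurement of TLR4 is therefore reported.

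**Figure D1:**
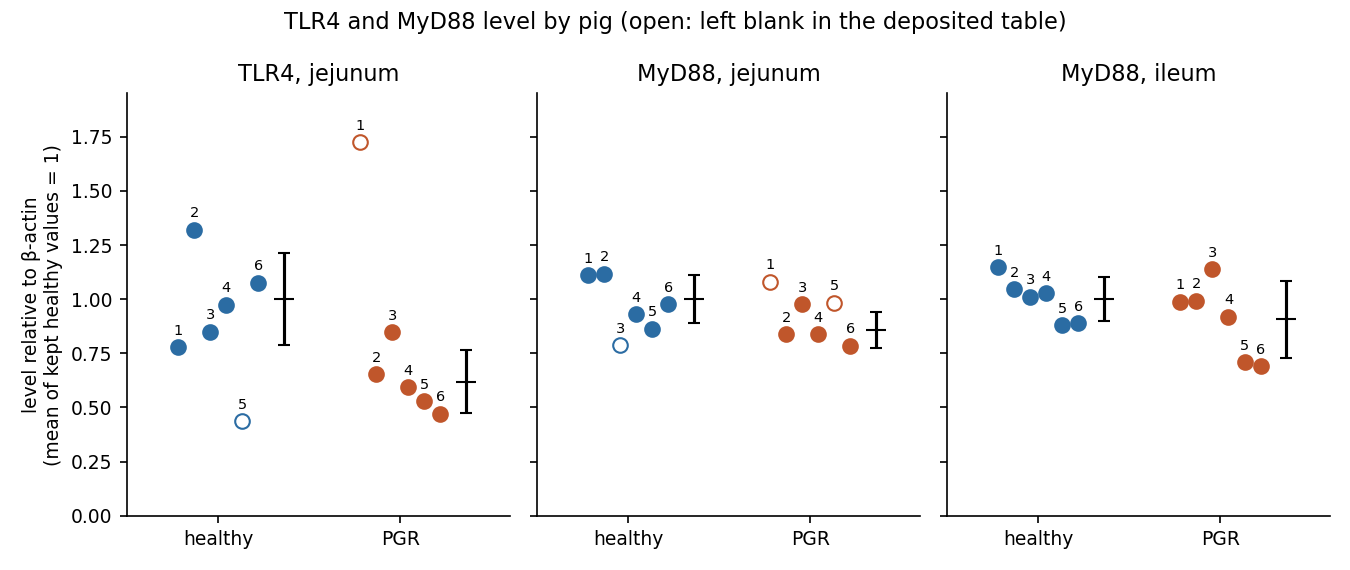
Level relative to β-actin (healthy mean of the tissue 1, linear axis) of TLR4 in jejunal mucosa and MyD88 in jejunal and ileal mucosa, by pig, with open symbols for blank values recomputed from the Ct and bars for the mean and SD of the kept values. The open symbols of TLR4 lie at 0.437 and 1.72, outside all kept values, and those of MyD88 lie below the kept healthy and above the kept PGR values.

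The Ct of TLR4 itself hardly separated the groups. It ran from 22.85 over a median of 23.45 to 23.89 cycles in healthy pigs and from 22.14 over a median of 23.42 to 23.87 in PGR pigs. PGR pigs 1 and 3 had the earliest TLR4 signal of all pigs, and the other 4 PGR pigs lay among the healthy pigs. The mean was 23.2 ± 0.71 (SD, n = 6) in PGR pigs and 23.4 ± 0.354 (SD, n = 6) in healthy pigs, a difference of −0.228 cycles with a 95% interval of −0.985 to 0.455 (exact permutation p = 0.487). Without a reference gene the ratio of TLR4 was thus 1.17 on the log2 scale (95% interval 0.730 to 1.98, exact permutation p = 0.487). The ratio of the mean linear amounts was 1.27 (exact permutation p = 0.405). On that scale 15.4 percent of jejunal genes were lower and 11.5 percent higher in PGR pigs at the unadjusted threshold, and 3.85 percent passed the adjustment. When the mean Ct of the other 24 target genes (all but TLR4 and MyD88) served as the reference, the TLR4 ratio was 1.26 (exact permutation p = 0.297).

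In the jejunal mucosa the level of MyD88 was lower on average in PGR pigs, by a difference that did not pass the test. The healthy pigs with a value had levels of 1.11, 1.12, 0.931, 0.863 and 0.978, with pig 3 blank. The PGR pigs with a value had levels of 0.837, 0.978, 0.837 and 0.785, with pigs 1 and 5 blank. In 3 of these 4 PGR pigs MyD88 was below every healthy pig with a value, and PGR pig 3 lay among the healthy pigs, as it did for TLR4.

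The mean level of MyD88 was 0.859 ± 0.0826 (SD, n = 4) in PGR pigs and 1 ± 0.112 (SD, n = 5) in the healthy group. The difference had an exact permutation p of 0.0873, adjusted 0.131. The log2 scale gave a ratio of 0.861 with a 95% interval of 0.727 to 1.01. MyD88 was thus outside the 50 percent of jejunal genes that were called lower, and it ranked 23 of 26 from the lowest ratio. The 3 blank values of MyD88 were 0.787 in healthy pig 3, below every kept healthy pig, and 1.08 and 0.984 in PGR pigs 1 and 5, above every kept PGR pig. Once these were filled in, MyD88 in PGR pigs was 0.951 of the healthy mean (exact permutation p = 0.506), with a 95% interval of 0.801 to 1.12 on the log2 scale.

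For both genes together, the 2 blank healthy values lay below and the 3 blank PGR values above all kept values of their group. Over all jejunal genes the recomputed blanks were below the kept values for 14 of 21 in healthy pigs and above them for 17 of 18 in PGR pigs. In the ileum, where MyD88 had no blank value, the blanks of healthy pigs lay the other way, with 11 of 17 above and 5 below the kept values, and those of PGR pigs were above for 14 of 18.

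The jejunal Ct of MyD88 was earlier on average in PGR pigs, by a difference that did not pass the test. It ran from 20.81 over a median of 21.00 to 21.62 cycles in healthy pigs and from 20.12 over a median of 20.79 to 21.08 in PGR pigs. PGR pig 3 was earliest and healthy pigs 2 and 6 were latest. The mean was 20.7 ± 0.325 (SD, n = 6) in PGR pigs and 21.1 ± 0.379 (SD, n = 6) in healthy pigs, a difference of −0.408 cycles (95% interval −0.86 to 0.055, exact permutation p = 0.0779). The β-actin Ct of the same samples was 13.3 ± 0.301 (SD, n = 6) against 13.8 ± 0.506 (SD, n = 6), a difference of −0.478 cycles (exact permutation p = 0.0866).

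In the ileal mucosa MyD88 was close to the healthy level when taken relative to β-actin, yet its Ct separated the groups without overlap. The ileal levels of healthy pigs ran from 0.879 over a median of 1.02 to 1.15, and those of PGR pigs from 0.690 over a median of 0.954 to 1.14. PGR pigs 5 and 6, at 0.709 and 0.690, lay below every healthy pig, and the other 4 PGR pigs lay among them. The mean was 0.906 ± 0.176 (SD, n = 6) in PGR pigs and 1 ± 0.101 (SD, n = 6) in the healthy group. The difference had an exact permutation p of 0.277, adjusted 0.337. On the log2 scale the ratio of MyD88 was 0.895, with a 95% interval of 0.732 to 1.11. Of the 25 ileal genes, 52 percent were lower in PGR pigs at this threshold, 4 percent were higher, and 0 passed the adjustment. With blanks filled the share lower at this threshold was 32 percent, and MyD88, which had no ileal blank, kept its ratio. MyD88 ranked 21 of 25 from the lowest ratio. The ileal genes rested on 4 sets of β-actin readings, whose PGR minus healthy difference ran from −0.701 to 0.425 cycles. The rank and the shares therefore also reflect the set each gene used.

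The ileal Ct of MyD88 ran from 20.85 over a median of 20.92 to 21.17 cycles in healthy pigs and from 20.32 over a median of 20.64 to 20.79 in PGR pigs. Every PGR pig had an earlier MyD88 signal than every healthy pig. The difference was −0.374 cycles (95% interval −0.575 to −0.18, exact permutation p = 0.00216, the smallest that 6 against 6 allow). The β-actin Ct of the same samples was earlier as well, at 13.3 ± 0.218 (SD, n = 6) cycles in the healthy and 12.8 ± 0.247 (SD, n = 6) in the PGR group, again without overlap (−0.534 cycles, exact permutation p = 0.00216). The part that the amount of cDNA and the level of β-actin had in these differences cannot be told apart.

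**Figure D2:**
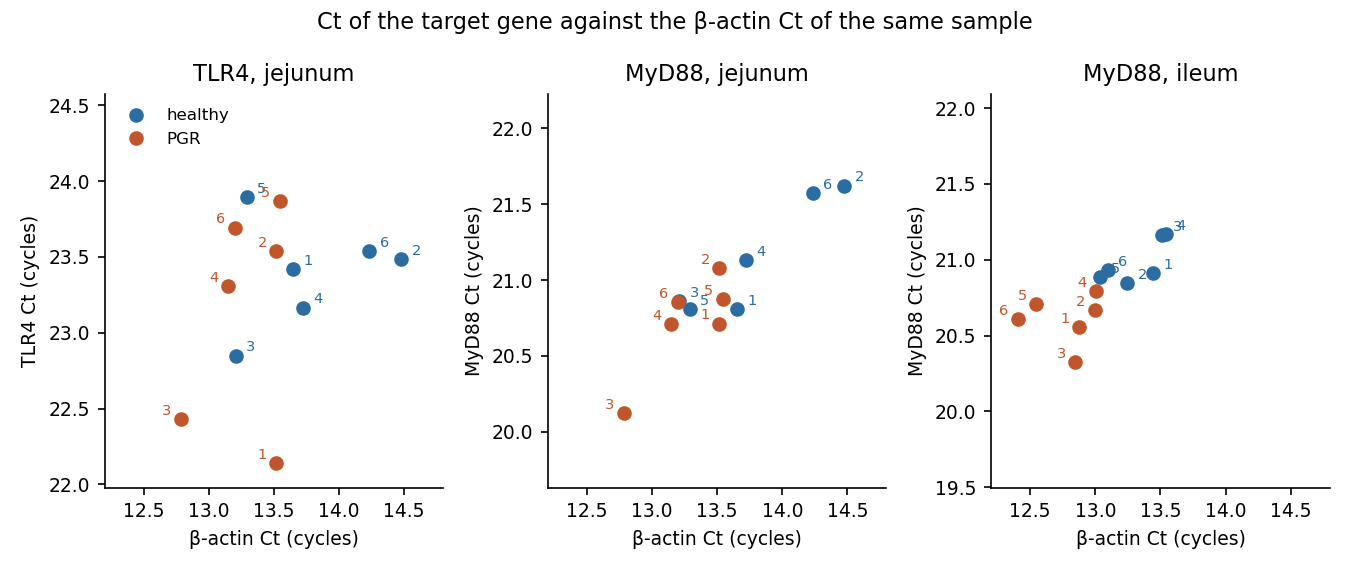
Ct of TLR4 or MyD88 (cycles, vertical axis) against the β-actin Ct of the same sample (cycles, horizontal axis), with each point a pig and its number beside it. MyD88 and β-actin lie along a line in the jejunum (r = 0.92) and TLR4 and β-actin do not (r = 0.31), and in the ileum the PGR pigs lie below the healthy pigs on both axes.

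The direction of MyD88 in PGR pigs therefore depended on the scale. Without a reference gene, ileal MyD88 was 1.3 times the healthy mean (exact permutation p = 0.00216, adjusted 0.0368), with a 95% interval of 1.13 to 1.49 on the log2 scale. On that scale 20 percent of the ileal genes were higher at the unadjusted threshold and 8 percent passed the adjustment in either direction. When the mean Ct of the other 24 target genes served as the reference, the MyD88 ratio was 1.23 in the ileum (exact permutation p = 0.0173, adjusted 0.124) and 1.36 in the jejunum (exact permutation p = 0.0130, adjusted 0.124). With that reference 12 percent of ileal and 19.2 percent of jejunal genes were higher at the unadjusted threshold. The change of scale also moved the median over all genes, although filling blanks changed only genes with a blank value. In the jejunum the median log2 change was −0.64 relative to β-actin and −0.37 with blanks filled. It was 0.17 with no reference gene and 0.25 with the mean Ct as reference. In the ileum the corresponding medians were −0.42, −0.30, 0.22 and 0.19. Of 26 jejunal genes ordered from the lowest ratio, MyD88 ranked 23, 21, 21 and 21 on these scales, and TLR4 ranked 10, 19, 20 and 18.

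**Figure D3:**
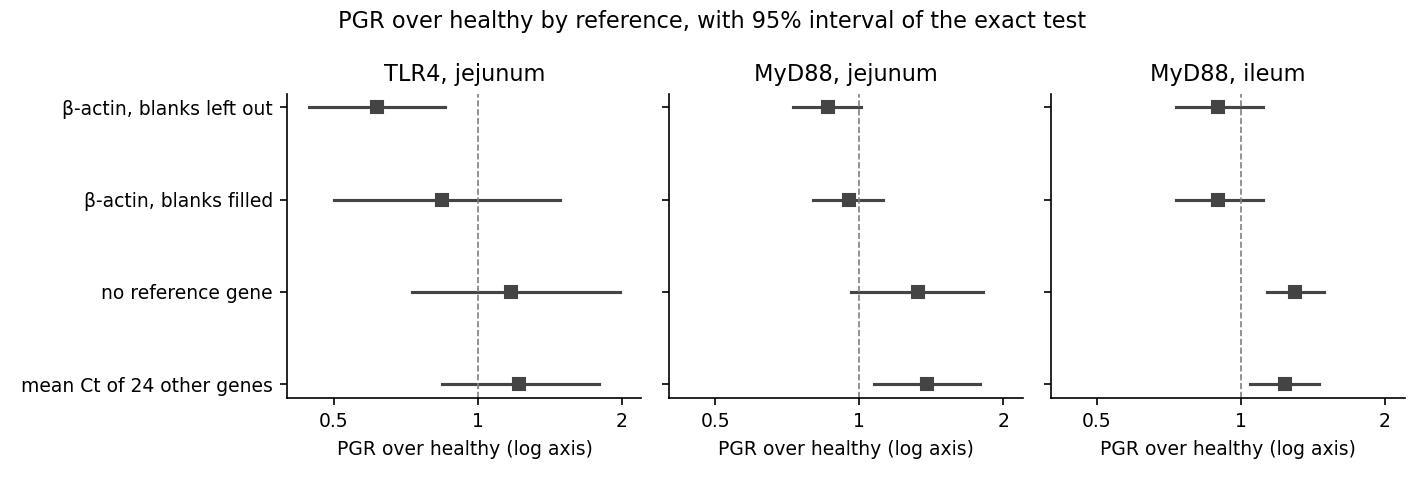
PGR to healthy ratio of TLR4 and MyD88 on the log2 scale (points, with lines for the 95% interval) under 4 scales: relative to β-actin, with blanks filled, no reference gene, and the mean Ct of the other 24 genes. TLR4 lies below 1 with its interval on the β-actin scale alone (0.617, 0.444 to 0.853), and ileal MyD88 lies above 1 with its interval on the scales that do not use β-actin.

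Over the jejunal samples the Ct of MyD88 followed that of β-actin closely (Pearson's r = 0.92, permutation p = 0.00011, adjusted 0.00044 over 4 relations). Spearman's rho was 0.785 (permutation p = 0.00331, adjusted 0.00662). With the samples farthest from the median of β-actin, healthy pig 2 and PGR pig 3, left out, r was 0.83. It was 0.94 within healthy pigs (exact permutation p = 0.0139) and 0.84 within PGR pigs (exact permutation p = 0.0278). The Ct of TLR4 and β-actin gave r = 0.31 (permutation p = 0.332) and rho = 0.182 (permutation p = 0.570), and r was 0.04 without the same 2 samples. Of the 26 jejunal genes MyD88 had the highest r with β-actin, followed by mTOR (0.78), Akt (0.73) and IL-4 (0.73). Among the 25 ileal genes it ranked 4 (r = 0.76), after 4EBP1 (0.80), CCK (0.78) and Akt (0.77). Target and β-actin share the cDNA of the sample, so these correlations include its amount. In the ileum the groups formed separate clusters, and r of MyD88 with β-actin was 0.74 within healthy pigs (exact permutation p = 0.108) and 0.04 within PGR pigs (exact permutation p = 0.926).

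MyD88 was also among the steadiest genes between pigs. Its within-group SD of the log2 level with blanks filled was 0.19 in the jejunum, the smallest of the 25 genes with filled values in all pigs, of which the median was 0.61. In the ileum its SD of 0.23 was the third smallest of 24 genes, after Akt and 4EBP1, against a median of 0.63. TLR4 varied like the typical gene, with an SD of 0.62 that ranked 14 of 25.

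The receptor was next set against the adaptor within each sample, which needs no reference gene and leaves no value blank. The measure is the Ct of MyD88 minus the Ct of TLR4, the log2 of the TLR4 to MyD88 ratio. The efficiencies and product lengths of both assays enter its size, so only its difference between groups is read. In healthy pigs it ran from −3.08 over a median of −2.01 to −1.86, and in PGR pigs from −3.0 over a median of −2.53 to −1.43.

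Healthy pigs 2, 3, 4 and 6 lay close together near −2, with healthy pigs 1 and 5 lower. PGR pig 1 was the highest of all pigs, and the other 5 PGR pigs lay between −3.0 and −2.31, below those 4 healthy pigs. The mean log2 ratio was −2.44 ± 0.554 (SD, n = 6) in PGR pigs and −2.26 ± 0.484 (SD, n = 6) in healthy pigs. The difference of −0.18 was within the spread between pigs (95% interval −0.81 to 0.51, exact permutation p = 0.561, adjusted 0.851 over the 325 pairs of target genes). That interval corresponds to a TLR4 to MyD88 ratio in PGR pigs between 0.570 and 1.42 times that of healthy pigs. Of the 325 pairs, 21.5 percent differed at the unadjusted threshold and 4.62 percent after adjustment. In the 4 PGR and 4 healthy pigs with both deposited levels kept, the difference was −0.43 (exact permutation p = 0.114), and without PGR pig 1 alone it was −0.38 (exact permutation p = 0.149).

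**Figure D4:**
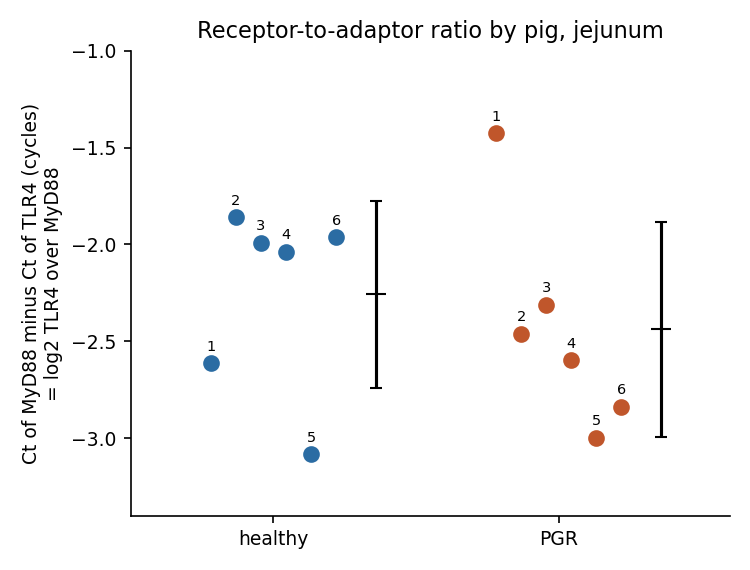
Log2 ratio of TLR4 to MyD88 in jejunal mucosa (Ct of MyD88 minus Ct of TLR4), by pig, with the mean and SD of each group. PGR pig 1 lies at −1.43 above all other pigs, and the group means of −2.26 and −2.44 differ by less than the SD.

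Against the 25 other target genes of the jejunum, each member was compared in the same way. TLR4 was higher in PGR pigs against 15 of the 25, and the difference had an unadjusted exact permutation p under 0.05 for 3 of them, GHR, GHRL and Nrf2. MyD88 was higher against 20 of the 25, with such a p for 4, the same 3 genes and IGF-1. GHR is the growth hormone receptor, GHRL encodes ghrelin, IGF-1 is the growth factor induced by growth hormone, and Nrf2 is a transcription factor of the antioxidant response. Neither TLR4 nor MyD88 was lower at that threshold against any target gene. Both counts are below the 21.5 percent of all pairs. After adjustment over the 325 pairs, 2 pairs of MyD88, those with IGF-1 and GHR (adjusted exact permutation p = 0.0469 for each), and 0 of TLR4 passed, beside 4.62 percent of all pairs. GHR was lower in PGR pigs at that threshold against 22 of the 25 genes other than itself, GHRL against 19, Nrf2 against 16 and IGF-1 against 10.

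The relation of the Ct of TLR4 to that of MyD88 over the jejunal samples did not pass the test (r = 0.47, permutation p = 0.126, adjusted 0.168, rho = 0.378, permutation p = 0.227). This r rested on PGR pigs 1 and 3, without which it was −0.01. It was 0.13 within healthy pigs (exact permutation p = 0.757) and 0.66 within PGR pigs (exact permutation p = 0.154). On the log2 level relative to β-actin, over the 8 pigs with both values kept, r was 0.80 (permutation p = 0.0185). Both of those levels carry the same β-actin reading, and the TLR4 extremes, healthy pig 5 and PGR pig 1, are not among the 8, so that r is not a relation of the transcripts alone.

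MyD88 was next compared between the tissues of the same pig. Relative to β-actin it was higher in the jejunum than in the ileum in 5 of 5 healthy and 4 of 4 PGR pigs with both values. The jejunal minus ileal log2 levels were 0.31, 0.45, 0.21, 0.33 and 0.49 in healthy pigs 1, 2, 4, 5 and 6. In PGR pigs 2, 3, 4 and 6 these were 0.11, 0.14, 0.22 and 0.54. All lay above 0, and the groups overlapped. In the pigs with a blank jejunal value, the filled difference was −0.0067 in healthy pig 3, the 1 pig not higher in the jejunum, and 0.48 and 0.83 in PGR pigs 1 and 5.

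The mean MyD88 difference between tissues was 0.36 ± 0.113 (SD, n = 5) in healthy pigs, 1.28 times the ileal level (exact sign-flip permutation p = 0.0625, adjusted 0.164). In PGR pigs it was 0.25 ± 0.199 (SD, n = 4), or 1.19 times (exact sign-flip permutation p = 0.125, adjusted 0.195). Both are the smallest p that so few pigs allow, so no call could be made. In each group 4 percent of the 25 genes were called higher in the jejunum, but only 2 genes a group, with values in all 6 pigs, could reach the threshold. The jejunal level was the higher one in every pig with both values for 16 of the 25 genes in healthy pigs and 12 in PGR pigs, MyD88 included. With blanks filled the difference was 0.30 in healthy pigs (exact sign-flip permutation p = 0.0625) and 0.39 in PGR pigs (exact sign-flip permutation p = 0.0312, the smallest that 6 pigs allow). The share of all genes called with blanks filled is not given here. The sign of the mean depended on β-actin. Without a reference gene the mean jejunal minus ileal log2 amount was −0.15 in healthy pigs (exact sign-flip permutation p = 0.5). It was −0.12 in PGR pigs (exact sign-flip permutation p = 0.281). The pigs went both ways: healthy pigs 1, 3, 4 and 5 and PGR pigs 3 and 4 were higher in the jejunum. Healthy pigs 2 and 6 were lower there, by 0.78 and 0.64. With the mean Ct of the other 24 target genes as reference MyD88 was lower in the jejunum, by a log2 difference of −1.09 in healthy pigs (exact sign-flip permutation p = 0.0312) and −0.92 in PGR pigs (exact sign-flip permutation p = 0.0312). That mean includes genes that were far higher in the jejunum relative to β-actin, such as GHRL and CCK, so this sign depends on the reference as well. The share of all genes called with this reference is not given here.

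The PGR change of MyD88 did not differ detectably between jejunum and ileum. The difference of the change was −0.11 on the log2 scale (95% interval −0.34 to 0.21, exact permutation p = 0.333, adjusted 0.830 over 25 genes), and 8 percent of genes passed the unadjusted threshold. TLR4 could not be compared between tissues.

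**Figure D5:**
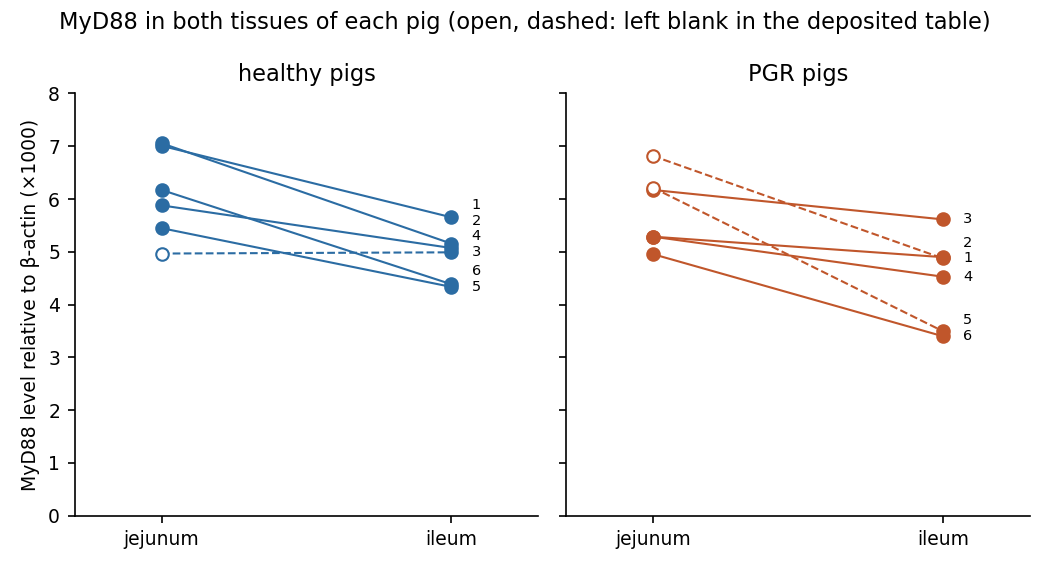
Level of MyD88 relative to β-actin (thousandths) in jejunal and ileal mucosa, with a line for each pig and open symbols for blank values recomputed from the Ct. All pigs with both values kept have the higher value in the jejunum, by log2 differences between 0.11 and 0.54.

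The target genes include 4 cytokines that can be induced downstream of TLR4 and MyD88. IL-1β and IL-6 promote inflammation, IL-8 attracts neutrophils, and IL-10 limits the response. In the jejunum 4 of the 4 had lower levels in PGR pigs at the unadjusted threshold, like TLR4 and 50 percent of all jejunal genes, and 0 of the 4 passed the adjustment. Their ratios were 0.576 for IL-1β (exact permutation p = 0.0317), 0.629 for IL-6 (exact permutation p = 0.0159), 0.624 for IL-8 (exact permutation p = 0.0173) and 0.739 for IL-10 (exact permutation p = 0.0476). The median log2 change of the 4 was −0.68, beside −0.64 for all genes. With blanks filled, 0 of the 4 had an exact permutation p under 0.05, and their median was 0.49, beside −0.37 for all genes. The filled ratio of IL-1β was 2.86 and that of IL-6 was 7.47, and for both PGR pig 3 was the 1 PGR pig above the healthy mean. The filled ratios of IL-8 and IL-10 were 0.694 and 0.659. With no reference gene 0 of the 4 ratios were below 1, beside 8 of all 26 genes. Of the 4, 0 had an exact permutation p under 0.05, beside 15.4 percent lower and 11.5 percent higher of all jejunal genes. Their median log2 change was 1.26, beside 0.17 for all genes. This median lies between ratios near 1 for IL-8 and IL-10 and widely spread ones for IL-1β and IL-6. The ratios were 1.05 for IL-8 and 1.01 for IL-10, and 5.49 ± 11.3 for IL-1β and 14.3 ± 32.7 for IL-6 (SD of the PGR pigs, n = 6). The same counts held for the 4 cytokines with the mean Ct of the 24 genes as reference. Of all 26 genes, 7 were then below 1, 11.5 percent lower and 19.2 percent higher at the threshold. The median of the 4 was 1.12, beside 0.25 for all genes, with ratios of 4.51 ± 8.75 for IL-1β and 11.5 ± 25.6 for IL-6 (SD of the PGR pigs, n = 6).

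In the ileum 2 of the 4 cytokines were lower at the threshold, against 52 percent of all ileal genes, with ratios of 0.535 for IL-8 (exact permutation p = 0.0238) and 0.759 for IL-10 (exact permutation p = 0.0216). The ratio was 1.13 for IL-1β (exact permutation p = 0.784) and 0.704 for IL-6 (exact permutation p = 0.0635). Their median log2 change, over different β-actin readings, was −0.45, beside −0.42 for all genes. IL-1β and IL-8 had ileal β-actin readings of their own, in which PGR pigs were later by 0.425 cycles (exact permutation p = 0.392), whereas IL-6, IL-10 and MyD88 shared the readings that were earlier by 0.534 cycles, so the ileal ratios of IL-1β and IL-8 cannot be set beside that of MyD88. With blanks filled, 1 of the 4 was lower at the threshold, against 32 percent of ileal genes, and their median was −0.11, beside −0.30 for all genes. IL-8 was then 0.657 (exact permutation p = 0.182), IL-6 was 1.75 (exact permutation p = 0.416), and IL-10, without blanks, stayed at 0.759. With no reference gene 0 of the 4 were lower at the threshold, beside 0 percent of ileal genes. IL-10 was then 1.08 (exact permutation p = 0.271), IL-8 0.510 (exact permutation p = 0.0606), IL-6 2.75 and IL-1β 0.839. With the mean Ct as reference 1 of the 4 was lower, beside 12 percent. IL-8 was then 0.499 (exact permutation p = 0.0325), IL-10 1.03 (exact permutation p = 0.803), IL-6 2.32 and IL-1β 0.717.

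PGR pig 3 had jejunal levels of IL-1β and IL-6 that were 12.4 and 37.6 times the healthy mean, both blank in the deposited levels, and levels of 0.763 for IL-8 and 1.18 for IL-10. Its TLR4 level was 0.846 and its MyD88 level 0.978, which ranked 6 and 5 of 12. PGR pig 1, with the highest TLR4 level of 1.72, had levels of 0.860 for IL-1β, 0.737 for IL-6, 0.624 for IL-8 and 0.885 for IL-10. These were all below the healthy mean.

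The target genes most like each member over the 12 samples of a tissue were found on Ct minus the mean Ct of all target genes of that tissue. For TLR4 these were AgRP (agouti-related peptide, r = 0.42), IL-6 (r = 0.37) and IL-10 (r = 0.29), none of which passed the test (permutation p adjusted over 25 genes 0.817, 0.817 and 0.954). Within healthy pigs the r of TLR4 with IL-6 was 0.94 (exact permutation p = 0.0111) and within PGR pigs 0.25 (exact permutation p = 0.694), and without PGR pigs 1 and 3 it was 0.54. MyD88 ranked 10 of 25 in likeness to TLR4 (r = 0.14). For jejunal MyD88 they were mTOR (r = 0.82), IL-4 (r = 0.75) and Akt (r = 0.71), with adjusted permutation p of 0.0365, 0.0627 and 0.0635. The r with mTOR was 0.91 within healthy pigs (exact permutation p = 0.0181) and 0.29 within PGR pigs (exact permutation p = 0.582), and 0.57 without healthy pigs 2 and 6. Within healthy and PGR pigs the r was 0.90 and 0.69 for IL-4 and 0.58 and 0.49 for Akt. For ileal MyD88 they were 4EBP1 (r = 0.87), P70S6K (r = 0.85) and IL-4 (r = 0.69), with adjusted permutation p of 0.00288, 0.00396 and 0.0982. Within healthy and PGR pigs the r was 0.80 and 0.86 for 4EBP1, 0.90 and 0.89 for P70S6K, and 0.79 and 0.28 for IL-4. mTOR, Akt, 4EBP1 and P70S6K belong to the growth and protein synthesis pathway around the kinase mTOR. The points share the cDNA of each sample and the mean Ct subtracted from both genes, so these values are descriptive.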

How the data were processed

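The authors extracted RNA from scraped mucosa, ran SYBR Green quantitative RT-PCR on a LightCycler instrument in triplicate, and deposited 1 table of the Ct of 26 target genes in 24 samples, an unnormalized and reversed log2 scale, and 1 table of the ratio of each gene to β-actin (2 to the power of −ΔCt). They left 40 jejunal and 37 ileal values of the ratio blank; the rule for this, the threshold setting and an efficiency correction are not given in the sources used here. A further deposited table, with the authors' fold of PGR pigs against healthy pigs, was not used.

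From these tables, the β-actin Ct was recovered as Ct plus log2 of the ratio; readings equal within 0.01 cycles gave 3 sets of genes in the jejunum and 4 in the ileum, of which the set of GLP-1R holds 1 gene in each, and the TLR4 and MyD88 values use a jejunal set of 14 and, for MyD88, an ileal set of 11 genes. With it, blank values were recomputed for the alternative with blanks filled. Groups were taken from the sample titles. Mean levels were compared by two-sided exact permutation tests, with Benjamini-Hochberg adjustment over 51 comparisons (26 jejunal genes and 25 ileal genes without TLR4); the methods of the study name an independent-sample test. Gene pairs were adjusted over 325 pairs, and tissue differences were tested by exact sign flips within pigs. The 95% intervals invert these tests on the log2 scale. Correlations used 100000 permutations, and exact permutations within groups. The genes named are TLR4, MyD88, the 4 cytokines and, for each member and tissue, the 3 target genes with the highest r. The members, lists and tests were chosen with earlier results of these data known.

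Other settings tried were limma, a rank-sum test, log2 levels, a block for pig numbers, no reference gene, the mean Ct of 24 genes, other β-actin sets, filled blanks and leaving out each pig. Settings that combine filled blanks with another choice were added after seeing the data. The procedures were tested on simulated data. Both symbols matched the RefSeq table of Sscrofa11.1, used for names only. Tests ran in limma 3.58.1 (R 4.3.3) and in Python 3.11.15 with scipy 1.17.1, numpy 2.4.6 and pandas 2.3.3, and plots in matplotlib 3.10.9. Serum and plasma measurements were not analysed here.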

Additional observations from a re-analysis of the deposited data

How the results depend on the processing

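For TLR4 in the jejunum the PGR to healthy ratio was 1.27 with no reference gene and 1.26 with the mean Ct of the other 24 genes as reference. With blanks filled it was 0.886, or 0.841 on the log2 scale with or without the block for pig numbers (exact permutation p = 0.531 and 0.487). With blanks filled but PGR pig 1 or healthy pig 5 left out, it was 0.683 (exact permutation p = 0.0844) or 0.803 (exact permutation p = 0.433), settings added after seeing the data. With the blank values left out, limma, the rank-sum test and log2 levels left the TLR4 call in place. For MyD88 the ratio was, with no reference gene and with the mean Ct, 1.32 and 1.36 in the jejunum and 1.3 and 1.23 in the ileum, where the β-actin readings of IL-1β gave 1.57 (exact permutation p = 0.199) and those of IGF-1 0.684 (exact permutation p = 0.394). The difference of the MyD88 change between tissues was 0.033 with no reference gene, 0.17 with the mean Ct, 0.089 with blanks filled, and 0.16 and −1.12 with the ileal β-actin readings of IGF-1 and IL-1β (exact permutation p = 1 and 0.0873). The jejunal minus ileal log2 level of MyD88 in healthy pigs was −0.15 with no reference gene, −1.09 with the mean Ct (exact sign-flip permutation p = 0.0312, as in PGR pigs), −0.30 and −0.80 with the ileal β-actin readings of IGF-1 and IL-1β, and 0.36 when the tissues were taken as unpaired (exact permutation p = 0.00649). In PGR pigs the corresponding values were −0.12, −0.92, −0.14 and −1.93, and 0.39 with blanks filled. The correlation of TLR4 with MyD88 was 0.80 on log2 levels (8 pigs, permutation p = 0.0185) and −0.0092 without PGR pigs 1 and 3.

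Leaving out 1 pig at a time, the TLR4 ratio ran from 0.562 to 0.673, and its exact permutation p from 0.0159 to 0.0317. MyD88 ran from 0.820 to 0.885 in the jejunum and from 0.860 to 0.950 in the ileum, the difference of its change from −0.20 to −0.06, and its difference between tissues from 0.33 to 0.40 in healthy and 0.16 to 0.30 in PGR pigs. The log2 TLR4 to MyD88 ratio differed by −0.38 to −0.07, and their correlation ran from 0.23 to 0.54. The TLR4 call held each time, but these TLR4 runs used the kept levels only. The blank pigs, with the lowest and the highest TLR4 level once filled, were therefore in none of them. With blanks filled and all pigs included, TLR4 was not called (ratio 0.886, exact permutation p = 0.675). For the MyD88 difference between tissues no call was possible with so few pigs.

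With the replicate block, pigs of the same number were paired. The TLR4 ratio was then 0.602 over 4 pairs (exact sign-flip permutation p = 0.125, the smallest that 4 pairs allow), and MyD88 was 0.815 in the jejunum and 0.895 in the ileum. The pigs were matched by litter, but the labels do not say whether the number marks the litter. Deviations of same-numbered pigs correlated from −0.33 to 0.29 in the jejunum and from −0.20 to 0.27 in the ileum. This r was over 0.1 for 1 of 6 numbers in the jejunum and 4 of 6 in the ileum. Only 1 of 6 numbers in the jejunum and 2 of 6 in the ileum correlated best within the number. With 6 numbers, these correlations cannot decide whether the number marks the litter. The main test left the pigs unpaired because the methods of the study name an independent-sample test. The β-actin readings of GLP-1R were not run, since they lacked pigs. What set the blank values, and why the β-actin sets differ, was not tested. With 4 to 6 pigs a group, the 95% interval of the TLR4 ratio with blanks filled, 0.50 to 1.48, holds both its ratio from the deposited levels and 1.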
